A study of Mus musculus with 12 samples.

Results

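The genes described here are 10 oncofetal or liver tumour marker genes: Afp, Gpc3, Golm1, Spink1, Ly6d, Igf2bp1, Igf2bp2, Igf2bp3, Bex1 and Bex4. They were chosen by symbol, and each matched 1 of the 46095 rows of a gene count table. Oncofetal genes are active in the fetal liver, are largely silenced in the adult hepatocyte, and return in many hepatocellular carcinomas. Alpha-fetoprotein, the product of Afp, is the classical serum marker of this kind, and glypican-3, Golgi membrane protein 1 and the serine protease inhibitor SPINK1 have been studied as companions to it. The other genes encode RNA-binding proteins of the fetal period (Igf2bp1 to Igf2bp3), small adaptor-like proteins named for brain expression on the X chromosome (Bex1 and Bex4) and a surface protein anchored in the membrane by a lipid (Ly6d).

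The libraries were made from hepatocellular carcinomas of mice given diethylnitrosamine, an alkylating liver carcinogen. All 12 tumours carried that treatment, 7 in Pck1-null mice (KO1 to KO7 below) and 5 in wild-type mice (WT1 to WT5). Pck1 encodes the cytosolic enzyme that makes phosphoenolpyruvate from oxaloacetate. The labels give no strain, sex or age, do not describe the null allele, and do not say whether each library came from its own animal. The p-values below therefore describe variation among the 12 libraries, which may be in part technical. No library of liver without tumour was analysed here, so whether a gene was re-expressed relative to normal liver could not be measured, and each level is set against the other tumours.

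Levels are given as CPM, the read count scaled to a common library size. Total counts were 17462102 to 23663506 in KO1, KO2, KO3, KO7, WT1, WT3 and WT4, the shallower libraries, and 43071365 to 46747125 in the other 5, the deeper libraries. Pck1 ran from 111 to 1167 CPM in KO and from 1063 to 5822 CPM in WT, so the library labelled KO3 overlapped with the library labelled WT4. Alb, the main secreted protein of hepatocytes, ran from 31612 to 140779 CPM and was abundant in every library. Xist, which coats the inactive X chromosome, was over 10 CPM in 5 of 7 KO libraries and in 1 of 5 WT libraries. It was under 1 CPM in the others, so this Xist class was split unevenly between the genotypes. Sex, which the labels do not give, may be split in the same way. The split touches the X-linked Gpc3, Bex1 and Bex4 but is not limited to them. Estimates of the autosomal Afp and Igf2bp3 also moved with the Xist class as a covariate, as given below.

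Afp lies on chromosome 5 (90490714 to 90508907), Gpc3 on X (52272426 to 52613974), Bex1 on X (136213972 to 136215513) and Bex4 on X (136138996 to 136140443), all as RefSeq genes on GRCm38.p6. The 250 bases before each RefSeq start are shown for Afp and for Gpc3, whose levels were most like those of Afp, and for Bex1 and Bex4, whose windows are nearly the same. They lie at chr5:90490464-90490713 (plus strand), chrX:52613975-52614224 (minus strand), chrX:136215514-136215763 (minus strand) and chrX:136138746-136138995 (plus strand), and are written 5′ to 3′ on the gene's strand. In Afp and Gpc3, capitals mark matches on either strand to the motifs named after the sequences. In Bex1 and Bex4, capitals mark their longest identical run.
Afp: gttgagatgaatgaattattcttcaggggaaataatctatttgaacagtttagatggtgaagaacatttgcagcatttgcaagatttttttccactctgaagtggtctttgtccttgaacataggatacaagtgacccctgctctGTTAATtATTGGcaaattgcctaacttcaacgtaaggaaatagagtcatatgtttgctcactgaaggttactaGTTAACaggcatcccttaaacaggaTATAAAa
Gpc3: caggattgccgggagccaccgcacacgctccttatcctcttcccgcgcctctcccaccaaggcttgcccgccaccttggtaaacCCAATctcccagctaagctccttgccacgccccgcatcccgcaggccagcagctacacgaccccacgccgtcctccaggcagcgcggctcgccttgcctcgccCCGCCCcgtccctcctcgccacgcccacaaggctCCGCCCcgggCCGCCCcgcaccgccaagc
Bex1: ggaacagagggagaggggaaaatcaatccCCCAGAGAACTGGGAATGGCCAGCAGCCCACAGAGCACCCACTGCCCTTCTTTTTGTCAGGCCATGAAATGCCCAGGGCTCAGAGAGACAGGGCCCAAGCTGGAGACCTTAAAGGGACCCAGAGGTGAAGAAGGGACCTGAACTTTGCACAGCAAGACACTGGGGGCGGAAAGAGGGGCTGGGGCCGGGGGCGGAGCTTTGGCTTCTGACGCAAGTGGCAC
Bex4: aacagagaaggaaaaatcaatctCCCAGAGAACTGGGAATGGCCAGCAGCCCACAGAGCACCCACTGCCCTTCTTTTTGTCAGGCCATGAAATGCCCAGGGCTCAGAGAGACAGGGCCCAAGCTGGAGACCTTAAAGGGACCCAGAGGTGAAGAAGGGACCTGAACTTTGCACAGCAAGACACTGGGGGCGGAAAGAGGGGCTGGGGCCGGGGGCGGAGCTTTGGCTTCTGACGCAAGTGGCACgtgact

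The Afp window held GTTAAT and GTTAAC, letters found at the core of sites of the hepatocyte factor HNF1, starting 105 and 32 bases before the RefSeq start. It also held TATAAA, starting 7 bases before that start and 30 bases before the GENCODE start, and 1 CCAAT match. Over 32851 RefSeq promoter windows of the same length, searched on both strands, GTTAAT was in 6.43%, GTTAAC in 2.56%, TATAAA in 12.4% and CCAAT in 33.8%. The Gpc3 window held none of the HNF1 or TATA letters. It held 3 matches to GGGCGG, the GC box, which was in 32.7% of windows, and 1 to CCAAT. Its GC content was 71.6%, against 36% for Afp and a median of 52.4% over all windows. The Bex1 and Bex4 windows were identical over 221 of 250 bases, and each held 2 GC boxes within that run. These matches describe letters, and no binding was measured.

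Compared per kilobase of exon, the median level over the 12 tumours was highest for Ly6d (428 CPM per kilobase), then Gpc3 (114), Afp (36.5), Bex1 (11.2), Spink1 (9.09) and Golm1 (8.20). Bex4 (1.03), Igf2bp2 (0.184) and Igf2bp3 (0.101) were low. Igf2bp1 had 1 read in KO5 and none in the other 11 libraries, so it was not tested. The other 9 genes passed the filter on low counts. Their levels varied widely between tumours. The standard deviation of log2 CPM over the 12 libraries was 2.60 for Afp and 3.23 for Spink1, above 99.2% and 99.8% of the 14666 genes tested, and was 0.94 for Golm1, above 79.3%.

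**Figure D1:**
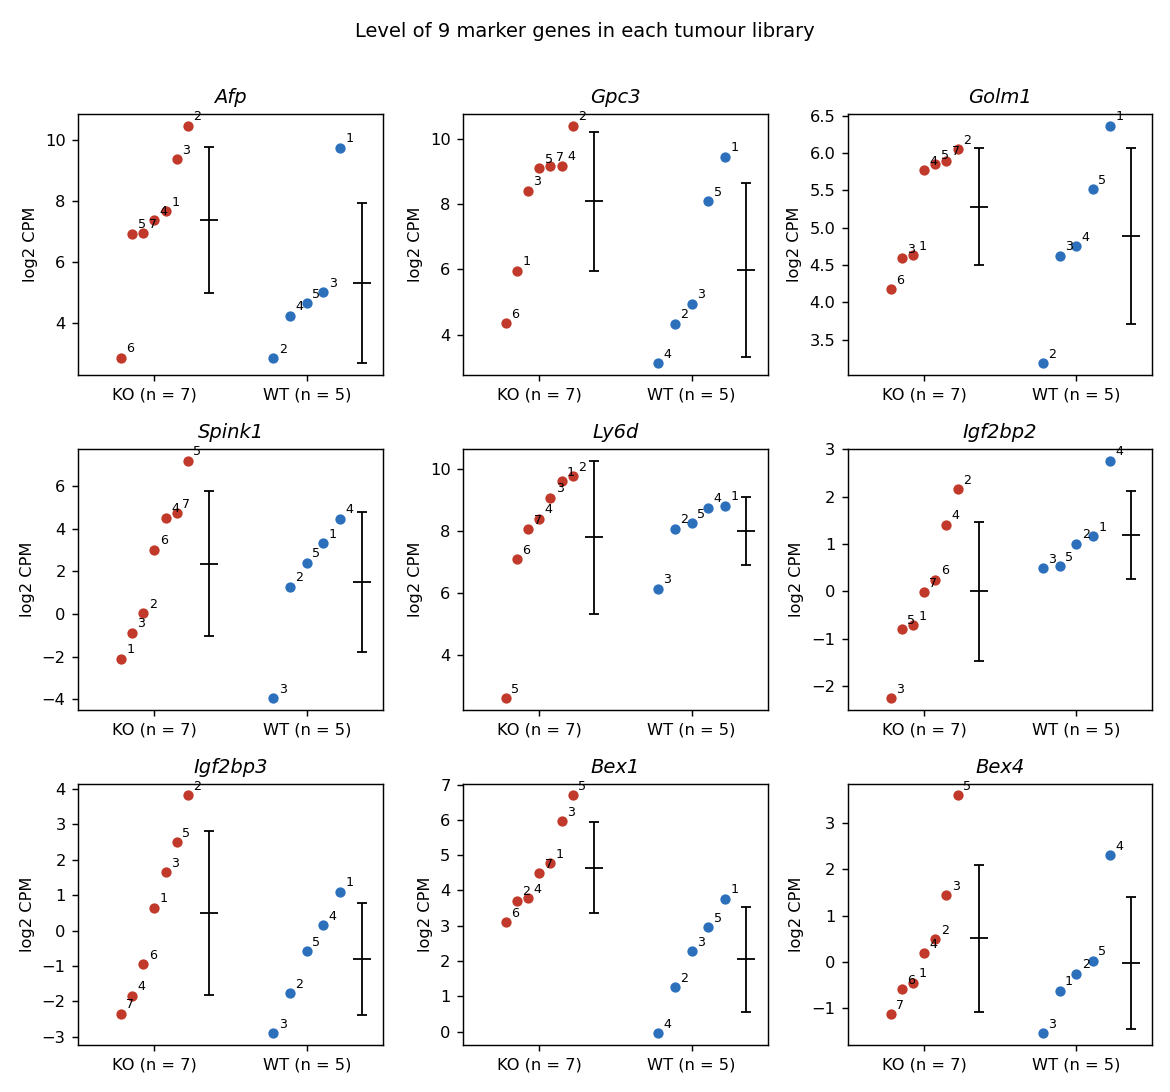
Log2 CPM of each of the 9 tested genes, 1 numbered point per KO (red) or WT (blue) library, sorted by level, beside the mean and SD of the group, with the Spink1 point of WT3 (0 reads) set by the prior count of 2. The genotypes overlap for every gene shown, and Afp spans 7.14 to 1433 CPM.

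Afp, which encodes a fetal carrier protein of plasma related to albumin, stood at 204, 1433, 669, 167, 122, 7.22 and 124 CPM in KO1 to KO7. In WT1 to WT5 it stood at 869, 7.14, 32.5, 18.99 and 25.1 CPM. KO2, WT1 and KO3 were the highest, KO6 and WT2 the lowest, and the genotypes overlapped over nearly the whole range. With WT1, the highest WT library, set aside after its value was seen, 6 of 7 KO libraries lay above every other WT library. The edgeR log2 fold change of KO against WT was 1.03 ± 1.29 (SE, adjusted p = 0.730). The mean log2 CPM was 7.38 ± 2.40 (SD, n = 7) in KO and 5.31 ± 2.62 (SD, n = 5) in WT (exact two-sided permutation p = 0.187). With each library left out in turn, the exact permutation p ran from 0.0303 (without WT1) to 0.361 (without WT2). Leaving out WT1 removes the main departure from a genotype difference, so the lower p without it is not support for one. The edgeR log2 fold change ran from 0.18 without KO2 (adjusted p = 0.957) to 4.22 without WT1 (adjusted p = 0.151), and was 0.53 with the Xist class as a covariate (adjusted p = 0.939). limma-voom with sample weights gave 3.36 with an adjusted p of 0.0437, so the call depended on the tool. That fit does not count the 12 libraries equally, and the weights were not examined. The difference of mean log2 CPM was 2.07 in all libraries and 3.19 without WT1, so the limit given for leaving out WT1 may also apply to that fit. The 3 highest libraries were all among the shallower ones, and the edgeR log2 fold change with the depth class as a covariate was 1.61 (adjusted p = 0.491).

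Gpc3, a heparan sulphate proteoglycan held on the cell surface by a lipid anchor, stood at 61.9, 1350, 339, 575, 550, 20.3 and 573 CPM in KO1 to KO7. It stood at 700, 20.01, 30.7, 8.63 and 273 CPM in WT1 to WT5. KO2 and WT1 were highest, as for Afp, while KO4, KO5 and KO7 lay near WT1 at much lower Afp. KO6, WT2, WT3 and WT4 were at most 30.7 CPM, and KO1 was low beside its Afp. The log2 fold change of KO against WT was 1.26 ± 1.12 (SE, edgeR adjusted p = 0.608), and the genotypes overlapped.

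Golm1, a Golgi membrane protein that is cleaved and released into serum, varied over a smaller range. It stood at 24.8, 66.1, 24.1, 54.6, 57.7, 18.0 and 59.5 CPM in KO1 to KO7 and at 82.4, 9.03, 24.6, 26.9 and 45.7 CPM in WT1 to WT5. WT1 and KO2 were again highest and WT2 lowest. The log2 fold change of KO against WT was 0.21 ± 0.49 (SE, edgeR adjusted p = 0.866).

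Spink1, a trypsin inhibitor made by the exocrine pancreas and also by some tumours, had the widest spread. It stood at 0.167, 0.969, 0.482, 22.9, 148, 8.02 and 26.6 CPM in KO1 to KO7. In WT1 to WT5 it stood at 9.92, 2.37, 0, 22.1 and 5.23 CPM. The 0 counts in WT3 allow a level of up to 3 reads, and 1 read in that library stood for 0.0703 CPM. This bound covers counting error only. KO5 lay far above every other library, and KO1, KO2 and KO3 were the lowest of the KO libraries although they held 3 of the 4 highest Afp levels. The log2 fold change was 1.90 ± 1.45 (SE, edgeR adjusted p = 0.549). Of 15 pancreatic acinar markers, Prss1, Prss2, Cpb1, Pnlip, Amy2a5, Cel and Try4 had no read in any library, and 2 passed the filter. Their summed level was 27.5 to 87.3 CPM in KO and 12.8 to 63.6 CPM in WT, most of it from Cela1.

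The libraries ordered in part alike by Spink1 and by Spp1, which encodes osteopontin and is a ductal and tumour marker, a pair set side by side after their values were seen. Spp1 was 39.9, 18.1 and 34.5 CPM in KO1, KO2 and KO3, where Spink1 was under 1 CPM, and 4254 CPM in KO5, where Spink1 was highest. WT4, the highest WT library for Spink1, was also the highest WT library for Spp1 at 885 CPM. WT3, with no Spink1 read, had 158 CPM of Spp1, more than WT2 and WT5. The 12 ductal and progenitor markers, Spp1 among them, summed to 213 to 4639 CPM in KO and 244 to 1057 CPM in WT. Spp1 alone gave 4254 of the 4639 CPM in KO5. Other members differed in that library. Krt19 was 0.709, Krt7 1.60 and Cldn4 0.532 CPM, while Pkhd1 was 125, Cd24a 83.8, Sox9 43.1 and Epcam 12.7 CPM. The part of these markers in the Spink1 level was not tested. In bulk tissue, more cells of a type and more RNA per cell cannot be told apart.

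Ly6d, a surface protein known from B-lineage precursors and squamous epithelium, was the most abundant of the genes for its length. It stood at 776, 861, 535, 335, 6.05, 135 and 264 CPM in KO1 to KO7 and at 448, 268, 70.3, 426 and 301 CPM in WT1 to WT5. KO5 stood alone at the bottom, and KO1, KO2 and KO3 were at the top, above every WT library. The edgeR log2 fold change was 0.46 ± 0.79 (SE, adjusted p = 0.811), while the difference of mean log2 CPM was -0.21, so the sign of the genotype difference depended on the measure. B-lineage markers summed to 4.96 to 78.3 CPM in KO and 24.7 to 78.3 CPM in WT, and squamous markers to 36.6 to 99.6 and 55.1 to 159 CPM. Single genes gave most of the largest sums, Jchain 70.9 of 78.3 CPM in KO4 and Perp 118 of 159 CPM in WT4. Igll1, Ighm, Krt1, Krt13 and Dsg3 had no read, and Rag1 and Vpreb1 had 7 and 42 reads in all. Jchain had 14514 reads where Ighm had none. The annotation used for counting is not stated, so the B-lineage sum may be incomplete. Both sums were below the Ly6d level of most libraries, and their part in it was not tested.

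Glul, the glutamine synthetase of pericentral hepatocytes and a target of beta-catenin, was set beside Ly6d after its values were seen. Glul was 15902, 9407 and 11642 CPM in KO1, KO2 and KO3, the 3 libraries highest in Ly6d. It was 31.7 CPM in KO5, the library lowest in Ly6d, and 116 CPM in WT3, the WT library lowest in Ly6d. The libraries between did not all follow: WT4 and WT5 had 426 and 301 CPM of Ly6d with 284 and 264 CPM of Glul, while KO6 had 135 CPM of Ly6d with 383 CPM of Glul.

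Igf2bp2 and Igf2bp3 encode proteins that bind target messenger RNAs such as Igf2 and slow their decay. Igf2bp2 stood at 0.544, 4.42, 0.145, 2.59, 0.510, 1.12 and 0.920 CPM in KO1 to KO7 and at 2.19, 1.94, 1.33, 6.73 and 1.38 CPM in WT1 to WT5. WT4 was highest, and 5 of 7 KO libraries lay below every WT library, with KO2 and KO4 as exceptions. The log2 fold change was -0.89 ± 0.71 (SE, edgeR adjusted p = 0.568), and the exact permutation p of mean log2 CPM was 0.146. With each library left out in turn, that p ran from 0.0390 (without KO2) to 0.321 (without WT4), and the edgeR log2 fold change from -1.46 (without KO2, adjusted p = 0.339) to -0.23 (without WT4, adjusted p = 0.902). KO2 was the highest KO library, so the lower p without it is not support for a genotype difference. The read counts of Igf2bp2 were low, at 3 reads in KO3 and 145 in KO4, which limits the precision of single libraries.

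Igf2bp3 stood at 1.51, 14.0, 3.08, 0.214, 5.58, 0.453 and 0.131 CPM in KO1 to KO7 and at 2.08, 0.228, 0.0703, 1.05 and 0.604 CPM in WT1 to WT5. KO2, KO5 and KO3 lay above every WT library, and the groups overlapped below them. The log2 fold change was 2.14 ± 1.14 (SE, edgeR adjusted p = 0.400), and it turned to -0.73 with the Xist class as a covariate (adjusted p = 0.874). Igf2bp2 and Igf2bp3 did not order the tumours alike, with r = -0.07 and rho = -0.08 over the 12 libraries (permutation p = 0.823 and 0.817).

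Of 12 RNAs known to be bound by these proteins, the noncoding H19 among them, 9 were tested. All 9 had a positive fold change of KO against WT and 0 passed, with a median log2 of 0.57 against 0.03 over all genes. Igf2, a fetal growth factor, was set beside Igf2bp3 after the values were seen. It was 398 CPM in KO2 and 385 CPM in KO5, the 2 libraries highest in Igf2bp3, and 163 CPM in KO3, the next. The other libraries did not all follow. WT5 had 132 CPM of Igf2 with 0.604 CPM of Igf2bp3, while KO1 had 6.78 CPM of Igf2 with 1.51 CPM of Igf2bp3. H19, the imprinted neighbour of Igf2, was 841 CPM in KO2, 1075 CPM in KO5 and 724 CPM in WT1. In the fit with Afp described below, which called 1.58% of all genes higher, 2 of the 9 were called higher: Mycn (slope 0.65 ± 0.09, SE, edgeR adjusted p = 0.0103) and Abcb1a (0.30 ± 0.07, 0.0398), named after their values were seen. The call of Mycn was lost in 1 and that of Abcb1a in 11 of 18 alternative fits.

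Bex1 had the smallest p for genotype among the genes. It stood at 27.1, 13.0, 62.2, 13.7, 103, 8.51 and 22.4 CPM in KO1 to KO7 and at 13.5, 2.33, 4.78, 0.906 and 7.72 CPM in WT1 to WT5. KO5 and KO3 were highest, and 5 of 7 KO libraries lay above every WT library, the exceptions being KO2 and KO6. The mean log2 CPM was 4.64 ± 1.29 (SD, n = 7) in KO and 2.04 ± 1.48 (SD, n = 5) in WT (exact permutation p = 0.00758, not adjusted). The difference was 2.60 in all libraries, 2.73 in the shallower and 2.42 in the deeper ones. With each library left out in turn the difference stayed between 2.08 and 3.03, and the exact permutation p between 0.00433 and 0.0303.

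Across all genes, the edgeR log2 fold change of Bex1 was 2.62 ± 0.78 (SE) with an unadjusted p of 0.00543 and an adjusted p of 0.211, so it did not pass. DESeq2 gave an adjusted p of 0.0107 and limma-voom of 0.0282, and the edgeR fit with the Xist class as a covariate gave 2.42 with an adjusted p of 0.426. The neural and neuroendocrine markers, where Bex genes are also known, had 3 of 12 members tested and summed to 9.90 to 20.2 CPM in KO and 6.71 to 18.5 CPM in WT.

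Bex4 stood at 0.670, 1.35, 2.65, 1.07, 12.03, 0.604 and 0.394 CPM in KO1 to KO7 and at 0.587, 0.776, 0.281, 4.87 and 0.956 CPM in WT1 to WT5. KO5 and WT4 stood above the rest. The log2 fold change was 0.85 ± 0.95 (SE, edgeR adjusted p = 0.691), and without KO5 it was -0.42. Bex1 and Bex4 share 203 stretches of 50 bases, which is 16.0% of those in Bex1 transcripts and 25.8% of those in Bex4 transcripts, so reads from the shared part cannot be told apart by sequence. Their levels still parted in WT4, which was the lowest library for Bex1 and the second highest for Bex4, and over the 12 libraries r was 0.25 and rho 0.20 (permutation p = 0.431 and 0.544). Ngfrap1, the Bex family gene now called Bex3, had a log2 fold change of 2.13 ± 0.49 (SE, edgeR adjusted p = 0.179, DESeq2 adjusted p = 0.00168). Bex2 had a negative estimate of -1.30 ± 0.53 (SE, edgeR adjusted p = 0.294).

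**Figure D2:**
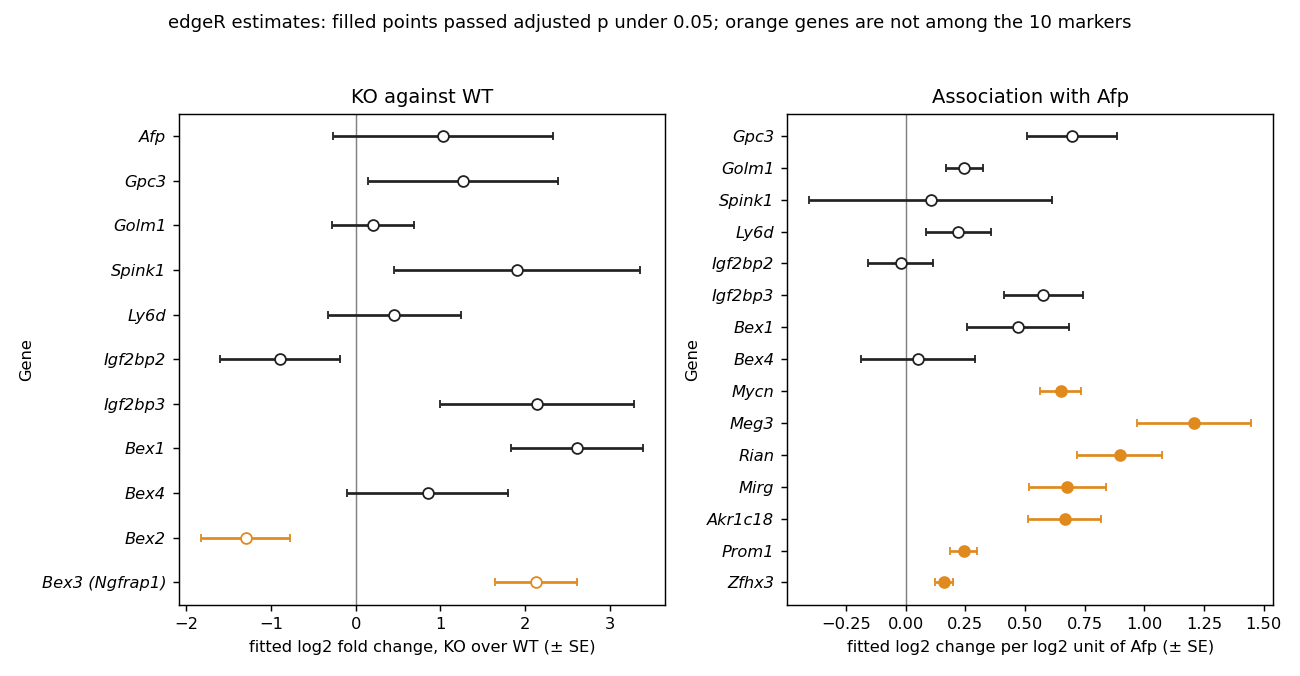
Left, edgeR log2 fold change of KO against WT, and right, change in log2 level per log2 unit of Afp, with bars of 1 standard error, for the tested marker genes (black) and genes of other lists named in the text (orange), filled where the adjusted p was under 0.05. Among the marker genes Bex1 has the largest genotype estimate at 2.62 and Gpc3 the largest slope with Afp at 0.70, and no marker gene is filled.

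Over all genes, 0 of 14666 passed an adjusted p of 0.05 with edgeR in either direction (0.0% called), while an unadjusted p below 0.05 held for 7.25% of genes with KO higher and 7.44% with KO lower. Genes called higher and lower numbered 247 (1.68%) and 242 (1.65%) with DESeq2, and 938 (6.4%) and 1200 (8.18%) with limma-voom. Of the 9 tested genes, 8 had a positive edgeR estimate and 1, Bex1, had an unadjusted p under 0.05. Their median log2 fold change was 1.03, against 0.03 over all genes tested. Lists of other cells and states also had shifted estimates with 0 genes called. All 12 neutrophil markers were positive (median 3.20, 10 with an unadjusted p under 0.05, summed level 296 to 4175 CPM in KO and 393 to 1234 CPM in WT). Lcn2 gave most of that sum in KO2 (1293 of 1333 CPM) and KO7 (2233 of 2270 CPM). Ngp, another of these markers, was 372, 71.8 and 61.0 CPM in KO3, KO6 and KO4. In the other KO libraries it was 2.24 to 6.74 CPM, and in WT 2.30 to 7.82 CPM. All 16 beta-catenin targets were positive (median 2.14, 6 with an unadjusted p under 0.05, summed level 160 to 38870 CPM in KO and 985 to 8458 CPM in WT). As targets of 1 pathway they are not separate observations. KO1, KO2 and KO3 summed to 38870, 22517 and 27383 CPM. KO4, KO6 and KO7 lay within the WT range at 4244, 2319 and 2947 CPM, and KO5 was the lowest of all libraries. Of 12 endothelial markers 10 were negative (median -0.57, 4 with an unadjusted p under 0.05). Their part in the marker genes' estimates was not tested. None of the 9 had groups that did not overlap, which held for 0.634% of all genes with KO higher and 0.58% with KO lower.

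The second question was which genes were high in the same tumours as Afp. The log2 level of Afp was used as a continuous term in an edgeR fit across 14665 other genes. It called 232 genes higher with Afp (1.58% called) and 247 lower (1.68% called), and none of the 8 other tested marker genes was among them. The number of calls rested on few libraries, since without WT2, 1 of the pair lowest in Afp, 10 and 7 genes were called, and with the depth class in the fit 5 and 9. For the 8 genes, Pearson's r and Spearman's rho over the 12 libraries are given with permutation p-values not adjusted over the 8. All genes of a library share its depth and cell makeup.

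Of the 8 genes, Gpc3 had the highest correlation with Afp. Its slope was 0.70 ± 0.19 log2 per log2 unit of Afp (SE, edgeR adjusted p = 0.0603), with r = 0.80 (permutation p = 0.0025) and rho = 0.83 (permutation p = 0.00124). At least as high a rho with Afp was found for 1.13% of tested genes. Without WT2 and KO6, the libraries farthest from the median of Afp, r was 0.70. Within the 7 KO libraries r was 0.75 and rho 0.46 (exact permutation p = 0.0510 and 0.302), and within the 7 shallower libraries r was 0.88 and rho 0.89 (exact permutation p = 0.0123 for both). With each library left out in turn, the edgeR adjusted p ran from 0.0496 (without KO5) to 0.185 (without WT2). KO5 had high Gpc3 at middling Afp, so leaving it out removes a departure from the relation, and the lower p without it is not support for it.

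Igf2bp3 had a slope of 0.58 ± 0.16 (SE, edgeR adjusted p = 0.0697), with r = 0.64 and rho = 0.53 (permutation p = 0.0282 and 0.0796). Of all tested genes, 14.1% had at least as high a rho with Afp. Without WT2 and KO6, r was 0.62. Within the KO libraries r was 0.59 and rho 0.46 (exact permutation p = 0.156 and 0.302). Its 3 highest libraries included KO2 and KO3, and KO5 was the departure from Afp. The edgeR adjusted p with a library left out ran from 0.0375 (without KO5) to 0.263 (without KO2), and the same limit applies to leaving out KO5.

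Golm1 had a slope of 0.25 ± 0.08 (SE, edgeR adjusted p = 0.0933), with r = 0.68 and rho = 0.64 (permutation p = 0.0152 and 0.0294). Such a rho with Afp or a higher one was found for 8.50% of tested genes. Its r fell to 0.42 without WT2 and KO6, so the relation rested in part on the libraries lowest in Afp. Within the KO libraries r was 0.47 and rho 0.32 (exact permutation p = 0.315 and 0.498). Golm1 lay closer to Gpc3 than to Afp, with r = 0.82 and rho = 0.82 (permutation p = 0.0014 and 0.00197), and 0.88 without the 2 libraries farthest from the median of Gpc3. That pair was picked from 36 after its value was seen.

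Bex1 had a slope of 0.47 ± 0.22 (SE, edgeR adjusted p = 0.219), with r = 0.61 and rho = 0.61 (permutation p = 0.0349 and 0.0399). Within the KO libraries these were 0.32 and 0.07 (exact permutation p = 0.502 and 0.906). Ly6d had rho = 0.66 but r = 0.29 (permutation p = 0.0237 and 0.377), a gap that came with KO5, where Afp was near its median and Ly6d at its lowest. A rho over all 12 libraries at least as high as that of Bex1 was found for 9.88% of tested genes, and as that of Ly6d for 7.52%. Within the KO libraries the rho of Ly6d was 0.93 and its r 0.41 (exact permutation p = 0.00675 and 0.312). Bex4, Igf2bp2 and Spink1 showed little relation, with slopes of 0.05 ± 0.24, -0.02 ± 0.14 and 0.10 ± 0.51 (SE) and edgeR adjusted p of 0.920, 0.948 and 0.928. limma-voom called Gpc3 (adjusted p = 0.00779), Golm1 (0.0193), Igf2bp3 (0.0196) and Bex1 (0.0355) higher with Afp, in a fit that called 10.4% of all genes higher and 10.9% lower. The edgeR adjusted p with a library left out reached 0.253 for Golm1 and 0.462 for Bex1, both without WT2.

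**Figure D3:**
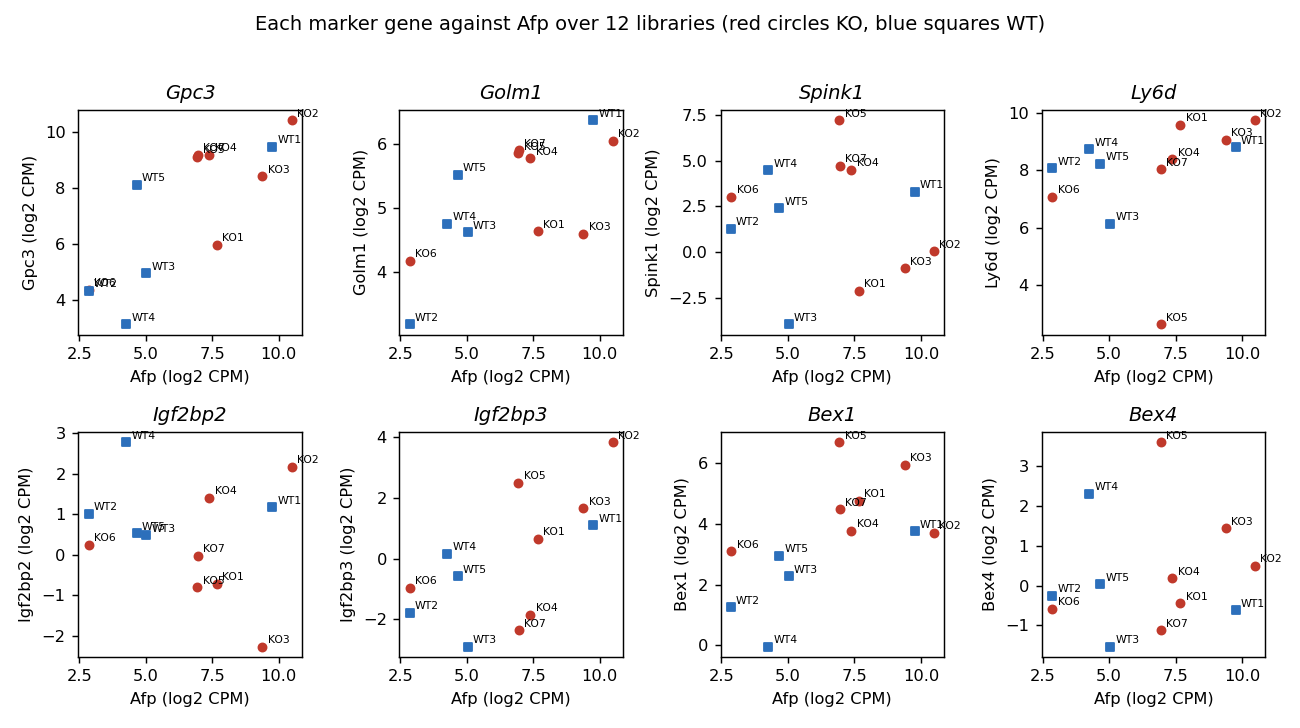
Log2 CPM of each of the 8 other tested genes against log2 CPM of Afp, 1 point per library and coloured by genotype. Gpc3 is higher where Afp is higher (r = 0.80), while Spink1 does not (r = -0.10).

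To show which tumours carried which marker, a gene was called elevated in a library at 4 times its own median over the 12 libraries or more, with at least 10 reads. This gave 13 pairs of gene and library, and no gene was elevated in more than 3 libraries. Afp was elevated in KO2, KO3 and WT1. KO2 was also elevated for Gpc3 and Igf2bp3, with 1.4% of all tested genes elevated in that library. KO3 was also elevated for Bex1 (2.16% of genes), and WT1 for none of the other genes (0.614%). KO5 was elevated for Igf2bp3, Spink1, Bex1 and Bex4 (2.93% of genes), with Afp at 122 CPM against a median of 123. KO7 was elevated for Spink1 (0.689%), just over the threshold, and WT4 for Igf2bp2 and Bex4 (2.11%). KO1, KO4, KO6, WT2, WT3 and WT5 had none, against 1.51%, 1.47%, 1.59%, 1.53%, 1.49% and 1.23% of genes. Golm1 and Ly6d were elevated in no library. Over all tested genes 11.2% were elevated in 1 or more libraries.

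The threshold hides high levels that many tumours share. Gpc3 at 700 CPM in WT1 was not called elevated because its median was 306 CPM. At 2 times the median there were 24 pairs, at 8 times 4 pairs, and at 4 times the lowest library 74 pairs.

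**Figure D4:**
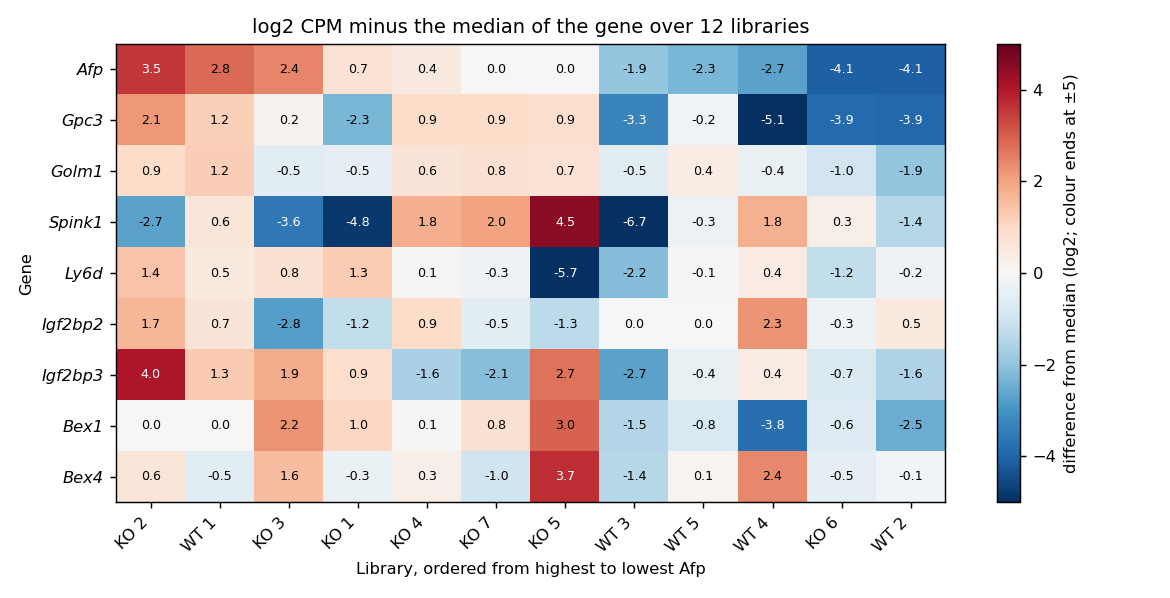
Log2 CPM of each gene minus its own median over the 12 libraries, with genes in rows and tumours in columns ordered by Afp. KO2, WT1 and KO3 stand at the high end of Afp, and KO5 combines the highest Spink1, Bex1 and Bex4 with the lowest Ly6d, while the colours end before the lowest values of Spink1 (WT3), Ly6d (KO5) and Gpc3 (WT4).

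The 10 genes whose levels were ordered most like Afp, by Spearman's rho over 12 libraries, were Oxr1 and Xpo6 (0.97 each), Sptlc2, Itpr3 and Cyb5r3 (0.95 each), Spred1 and Mycn (0.94 each), Fem1b (0.94), and Stt3b and Cmas (0.93 each). Mycn, a MYC family transcription factor, ran from 0.151 CPM in KO6 to 9.15 CPM in KO2. The genes most like each other marker were Fhl3 for Gpc3 (0.95), Rdx for Golm1 (0.94), Bicc1 for Spink1 (0.97), Gpd2 for Ly6d (0.96), Gm14176 for Igf2bp2 (0.91), Phf6 for Igf2bp3 (0.92), Gm9770 for Bex1 (0.98) and Kdm2b for Bex4 (0.89). They were selected for this likeness, so no test applies.

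A list of 32 other fetal liver and oncofetal genes was read from the same fits. Of these, 25 were tested, 21 with a positive and 4 with a negative fold change of KO against WT and 0 called, with a median log2 of 1.06. Those with the smallest p were Lin7a (-1.71 ± 0.56, SE, edgeR adjusted p = 0.235), Cdkn1c, a cell cycle inhibitor (1.19 ± 0.47, 0.288), Peg3 (3.41 ± 1.37, 0.291) and Cd24a (1.81 ± 0.72, 0.291). With Afp, 5 of the 25 were called higher and 0 lower, in a fit that called 1.58% of genes higher. They were Meg3 (slope 1.21 ± 0.24, SE, edgeR adjusted p = 0.0260), Rian (0.90), Mirg (0.68), Akr1c18 (0.67) and Prom1 (0.24), named after their values were seen. Meg3, Rian and Mirg are noncoding RNAs of 1 imprinted cluster, so they are not separate observations. Their counts were low. Meg3 had 379 reads in all, with 0 in KO5, KO6, WT2, WT4 and WT5, and Mirg had 228 reads in all. Rian had 0 to 2 reads in each of WT2 to WT5. The slopes of these RNAs thus rest in part on libraries with few or no reads.

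The calls of Meg3, Rian, Mirg, Akr1c18 and Prom1 were lost in 2 to 13 of 18 alternative fits, and the call of Meg3 was lost without KO2, KO6, WT2 or WT5 (adjusted p up to 0.101). Lin28b, a repressor of let-7 microRNAs in fetal cells, had no read. Dlk1, Lin28a, Sall4, Trim71, Plag1 and Elovl3 did not pass the filter on low counts.

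Of 20 listed regulators of Afp, 18 were tested, with 8 positive and 10 negative fold changes of KO against WT and 0 called. Cebpa had the smallest p (-0.72 ± 0.23, SE, edgeR adjusted p = 0.222), followed by Foxa1 (0.54 ± 0.22, 0.293). With Afp, in a fit that called 1.58% of genes higher and 1.68% lower, 1 of 18 was called, Zfhx3, a zinc finger homeobox factor known as an Afp repressor, and it was higher (slope 0.16 ± 0.04, SE, edgeR adjusted p = 0.0417), a call lost in 12 of 18 alternative fits. Zhx2, a repressor of Afp after birth, ran from 13.5 to 27.2 CPM, with a slope of -0.00032 ± 0.035 (SE, edgeR adjusted p = 0.997). Zbtb20, the other postnatal repressor, ran from 127 to 269 CPM, with a slope of 0.02 ± 0.04 (SE, edgeR adjusted p = 0.814). Ctnnb1 had a slope of 0.12 ± 0.03 (SE, edgeR adjusted p = 0.0519).

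Marker lists of other cells and cell states were read from the fit with Afp. All 16 beta-catenin targets of the liver had a positive slope and 0 were called, with Glul at 0.71 ± 0.23 (SE, edgeR adjusted p = 0.102). All 18 cell cycle genes had a positive slope and 0 were called. All 12 endothelial and all 12 Kupffer cell and macrophage markers had a negative slope, with 3 endothelial markers called lower (Stab1, Eng and Tie1, edgeR adjusted p = 0.0296, 0.0296 and 0.0425) against 1.68% of genes. The endothelial markers summed to 224 to 1017 CPM in KO and 529 to 876 CPM in WT. The highest sums were in KO6 and WT2, the 2 libraries lowest in Afp, at 1017 and 876 CPM. Kupffer cell and macrophage markers were also highest in these 2 libraries, at 3829 and 2072 CPM. The negative slopes thus rest in part on them. The 18 mature hepatocyte genes had 8 positive and 10 negative slopes, with 0 called higher and 1 lower, Ass1, an enzyme of the urea cycle (slope -0.48 ± 0.11, SE, edgeR adjusted p = 0.0366). The calls of Stab1, Eng, Tie1 and Ass1 were not followed over the alternative fits, and without WT2 only 7 of all genes were called lower. Whether the shifts of these lists contribute to the relation of Gpc3, Igf2bp3 or Golm1 with Afp was not tested.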

How the data were processed

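RNA sequencing measured 12 tumours. The authors deposited 1 table of raw read counts per gene, whole numbers without normalization. Reads were aligned with HISAT2 to mm10, per the submitters' processing notes. For the counting program, strand setting and annotation, nothing is stated in the labels. Groups follow the genotype label. The title of KO replicate 7 has another prefix than those of the other KO libraries. Replicates were numbered in accession order.

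Genes were filtered with filterByExpr (minimum count 10, minimum total 15), leaving 14666 with 99.9% of counts, and tested with edgeR 4.0.16 in R 4.3.3 (TMM scaling, robust quasi-likelihood F-tests, Benjamini-Hochberg adjustment at 0.05), also with the log2 CPM of Afp (prior count 2) as a continuous term. The standard error is the estimate over the square root of F. Exact permutation tests used 792 regroupings of the 12 libraries, and correlations 100000 permutations. Alternatives were DESeq2 1.42.0, limma-voom with sample weights (limma 3.58.1), and other scalings and filters. Further alternatives were covariates for title number range, depth, Xist class and genotype, and each library left out. The Xist class in the Afp fit was chosen after seeing the data. The fits were tested on simulated data.

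The members and lists were chosen with earlier results of these data known. Beyond the 10 genes, the text names the genes most like each by Spearman's rho, up to 4 genes per list by smallest p, and a few context genes. Symbols were matched to RefSeq tables on GRCm38.p6, the assembly of mm10. Promoter windows were found for 7 of the 10.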

Additional observations from a re-analysis of the deposited data

Results flagged for a closer look

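Ly6d was flagged in both genotypes, out of 18 sets of gene and genotype examined for a library that stands apart. In KO, replicate 5 was the lowest, with a log2 CPM of 2.61 against 7.08 for the next. The gap was 0.626 of the range of the 7 libraries, above Dixon's critical value of 0.568. In WT, replicate 3 was the lowest, with a log2 CPM of 6.14 against 8.07 for the next. The gap was 0.723 of the range of the 5 libraries, above the critical value of 0.71. Chance flags about 1 in 20 such sets.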

How the results depend on the processing

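For KO against WT, the 0 genes called higher and 0 lower with edgeR became 247 and 242 with DESeq2, 938 and 1200 with limma-voom, and 1 and 2 with the depth class as a covariate. The count lower was 1 with upper quartile scaling, without a filter, with the filter of 1 CPM in 5 libraries and with the title number range, and 2 in the deeper libraries alone. Leaving out each library gave 0 to 14 higher and 0 to 51 lower. The 232 genes higher and 247 lower with Afp became 45 and 43 with genotype, 5 and 9 with the depth class, 102 and 125 with the Xist class, and 1529 and 1593 with limma-voom. Leaving out each library gave 10 to 414 and 7 to 419. The 13 elevated pairs became 24, 4 and 74 at 2 times and 8 times the median and 4 times the lowest library.

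Of 731 alternatives for single genes, 627 kept direction and side of the threshold, 15 passed it, 65 lost it and 24 reversed. The fold change of Bex4 was -0.10 with the Xist class and -0.62 in the shallower libraries, and -0.42 to 2.02 with a library left out. Golm1 was -0.035 in the shallower libraries and -0.046 to 0.71 with a library left out. Igf2bp3 was -0.73 with the Xist class, Ly6d -0.84 in the deeper libraries and Spink1 -0.60 in the shallower ones. The Afp slope of Bex4 was -0.13 with genotype and -0.042 with the Xist class, and -0.042 to 0.21 with a library left out. That of Igf2bp2 was 0.10 with genotype and -0.19 to 0.095 with a library left out. That of Spink1 was -0.092 with genotype, -0.0086 with limma-voom and -0.14 to 0.33 with a library left out. With a library left out, the difference of mean log2 CPM was -0.51 to 1.60 for Spink1 (lowest without WT replicate 3), -0.032 to 0.76 for Golm1 (lowest without WT replicate 2) and -0.67 to 0.66 for Ly6d (highest without KO replicate 5). The cause was not tested. No paired analysis was possible because replicate numbers were given in accession order and pair no samples.

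Depth limits Igf2bp2, Igf2bp3 and Bex4, with counts from 1 to 543 a library, and Igf2bp1 could not be compared. It also limits Meg3, Rian and Mirg, with counts from 0 to 184 a library.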
